A study of Mus musculus with 12 samples.

Results

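The 9 genes described here, Dcn, Lum, Ogn, Aldh1a2, Slc6a13, Foxc1, Foxc2, Bgn and Gjb2, are markers of the fibroblasts of the meninges, the membranes that cover the brain. They were found by their symbols among the 52634 genes of the deposited count table, and each was present once. Meningeal fibroblasts build the collagen and proteoglycan matrix of the pia, arachnoid and dura, and they hold together the basement membrane on the surface of the brain. In development the forkhead transcription factor Foxc1 is needed for the meninges to form, and Foxc1 is also made by brain pericytes. The arachnoid is a source of retinoic acid, a vitamin A derivative that acts on the cortex below it. None of the 9 genes belongs to fibroblasts alone, and Bgn in particular is made by many cells of the connective tissue and vessel wall.

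Dorsal hippocampus of mice at postnatal day 7 was profiled by RNA sequencing, and every library came from the tissue of 4 mice. The controls, SERTfl/fl, carry a loxP-flanked Slc6a4, the gene of the serotonin transporter (SERT), and the SERTPyramid mice lack SERT conditionally in pyramidal neurons, named in the series' title as those of hippocampal field CA3. Each genotype was sampled with 3 libraries labelled female and 3 labelled male. The labels used here name neither the Cre driver of the deletion nor the strain, and they do not say whether pools shared litters. All p-values therefore refer only to the spread between these libraries, which may be partly technical. Library totals ran from 18747249 to 25522347 counts, and Slc6a4 had 0 to 17 counts per library, too few to check the deletion in this tissue. Levels of Xist and of Y-linked genes contradicted the label of 10 libraries out of 12, the exceptions being control replicate 1 of both labelled sexes. Female and male below therefore name labels only, and no library was moved. By these genes both control groups mixed libraries rich in Xist with libraries rich in Y-linked RNA. SERTPyramid libraries labelled female were all rich in Y-linked RNA, and those labelled male were all rich in Xist. Genotype and sex therefore cannot be fully told apart in any comparison within a label or in their difference. SERTfl/fl replicate 3 labelled female had 527 Xist and 2849 Y-linked counts. Neuronal markers of the hippocampus were abundant (Neurod6 at 289.6 to 325.7 CPM and Prox1 at 181.7 to 258.0 CPM). The summed level of the 9 fibroblast genes was 99.2 to 125.6 CPM. CPM are read counts relative to library size, scaled by the trimmed mean of M-values (TMM). Values listed for a group are in the order of its replicate numbers.

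Every member was detected in all 12 libraries and passed the filter on low counts. Compared per kilobase of exon, so that genes of unequal length can be set side by side, Bgn was the most abundant at 8.26 ± 0.431 CPM per kb (SD, n = 12). Slc6a13 followed at 4.13 ± 0.602 CPM per kb and Dcn at 2.82 ± 0.249 CPM per kb. These 3 levels stood apart from each other, because Bgn exceeded Slc6a13 and Slc6a13 exceeded Dcn in 12 of 12 libraries with ranges that did not overlap. Below them came Aldh1a2 at 2.66 ± 0.478, Foxc1 at 2.00 ± 0.258, Gjb2 at 1.83 ± 0.376, Ogn at 1.35 ± 0.382 and Lum at 1.26 ± 0.180 CPM per kb. From Dcn to Lum, the ranges of neighbours in this order overlapped. Foxc2 was the lowest at 0.418 ± 0.217 CPM per kb, below Lum in 12 of 12 libraries. Because these are bulk samples, fewer fibroblasts in a pool and less RNA per fibroblast cannot be told apart for any value below.

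Upstream sequence was taken from RefSeq (GRCm38.p6), which held an entry for 6 of the 9 members. The 250 bases before the transcription start are shown for Ogn, Aldh1a2 and Gjb2, an example each of a proteoglycan, the retinoic acid enzyme and the connexin. They differ in base composition. Capitals mark matches, on either strand, to the TATA box TATAAA, the CCAAT box CCAAT, the GC box GGGCGG or the forkhead motif TGTTTAC.
Ogn, chr13:49607765-49608014, plus strand: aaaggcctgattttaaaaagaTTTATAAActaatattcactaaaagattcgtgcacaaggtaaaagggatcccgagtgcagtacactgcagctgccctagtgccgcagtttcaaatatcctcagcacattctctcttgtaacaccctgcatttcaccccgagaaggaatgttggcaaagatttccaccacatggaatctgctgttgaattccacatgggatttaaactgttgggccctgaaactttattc
Aldh1a2, chr9:71215539-71215788, plus strand: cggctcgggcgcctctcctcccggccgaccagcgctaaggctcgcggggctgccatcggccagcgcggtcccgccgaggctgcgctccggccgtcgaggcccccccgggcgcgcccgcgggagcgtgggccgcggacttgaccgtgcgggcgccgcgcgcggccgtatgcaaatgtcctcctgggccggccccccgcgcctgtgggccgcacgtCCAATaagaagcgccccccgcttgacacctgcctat
Gjb2, chr14:57104703-57104952, minus strand: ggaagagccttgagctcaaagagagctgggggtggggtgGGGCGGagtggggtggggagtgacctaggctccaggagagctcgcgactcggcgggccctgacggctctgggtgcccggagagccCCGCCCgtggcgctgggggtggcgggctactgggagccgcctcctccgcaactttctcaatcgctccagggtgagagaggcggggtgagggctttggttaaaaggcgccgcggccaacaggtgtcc

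The Ogn window was AT-rich, with 42.0% G and C, and 15.9% of all 32841 promoters of this length had less. Its capitals are a pair of overlapping TATAAA matches on opposite strands, 229 and 227 bases before the start. The Aldh1a2 window held 77.6% G and C, more than 97.6% of all promoters, and a CCAAT match 36 bases before the start. In the Gjb2 window, with 69.2% G and C, GC box matches began 211 and 126 bases before the start. Across all promoters, TATAAA was found in 12.4%, CCAAT in 33.9%, GGGCGG in 32.7% and TGTTTAC in 3.17%. None of the 3 windows held TGTTTAC.

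Genotypes were compared within each labelled sex with edgeR's quasi-likelihood test on the 17631 genes that passed the filter, with Benjamini-Hochberg adjustment over all of them. Fold changes are SERTPyramid over SERTfl/fl on the log2 scale. Of the 9 genes, 4 had a fold change above 0 labelled female (median -0.06) and 8 of 9 labelled male (median 0.08). With each library left out in turn these were 3 to 4 (medians -0.10 to -0.02) and 6 to 9 (medians 0.03 to 0.19). The medians over all genes tested were 0.00 in both. By edgeR with an adjusted p of 0.05, 0 of 9 members and 0 of 17631 genes (0%) passed in either labelled sex, in their difference or in their average. At an unadjusted edgeR p under 0.05 there was 1 member each time. Foxc1 was that member labelled female, where 8.04% of all genes passed, and in the difference, where 4.45% did. Gjb2 was that member labelled male, where 3.16% passed, and in the average, where 6.49% did. Across all genes the unadjusted counts were 1417 labelled female, 558 labelled male, 785 for the difference and 1145 for the average. DESeq2 called 1, 0, 1 and 0 genes in the same order and limma voom 0 in each. When the libraries labelled female were fitted alone, 415 of 17108 genes passed (2.43%), and none of them was a member.

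The small leucine-rich proteoglycans Bgn, Dcn, Lum and Ogn encode biglycan, decorin, lumican and osteoglycin, secreted proteins of the extracellular matrix, several of which bind collagen fibrils. Dcn (chr10:97479609-97518143) and Lum (chr10:97565128-97572703) are neighbours on the plus strand, 47.0 kb apart. Ogn (chr13:49608046-49624501) ends a row of the related genes Ecm2, Aspn and Omd. Cenpp is annotated across the Ogn locus on the opposite strand, shares no exon sequence with Ogn and had 25 to 43 counts per library. Bgn (chrX:73483602-73495933) is X-linked.

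Bgn was the steadiest of the 9 genes. In libraries labelled female it was at 51.6, 48.5 and 50.5 CPM in SERTfl/fl and at 51.2, 47.6 and 45.6 CPM in SERTPyramid. In those labelled male, the values were 48.0, 52.8 and 49.5 CPM in SERTfl/fl and 53.8, 54.2 and 51.4 CPM in SERTPyramid. The genotypes overlapped in both labelled sexes. Its coefficient of variation over 12 libraries was 5.21%, against 2.93% expected from counting error alone. Dcn varied by 8.83%, with 16.9, 18.1 and 15.8 CPM in SERTfl/fl and 16.0, 16.1 and 14.3 CPM in SERTPyramid labelled female. Its values labelled male were 15.8, 18.3 and 15.2 CPM in SERTfl/fl and 18.7, 17.7 and 14.8 CPM in SERTPyramid. Here too the genotypes overlapped.

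Lum was present at 47 to 88 counts per library. In libraries labelled female it was at 3.41, 3.47 and 3.26 CPM in SERTfl/fl and at 3.33, 2.92 and 2.47 CPM in SERTPyramid. Those labelled male had 2.502, 3.47 and 3.02 CPM in SERTfl/fl and 3.68, 3.19 and 2.36 CPM in SERTPyramid. The variation of Lum, 14.2%, was close to the 11.8% that counting error gives. Ogn varied more, by 28.3% against 11.2% from counting. In SERTfl/fl libraries labelled female Ogn was at 3.32, 3.59 and 4.31 CPM, and in SERTPyramid at 2.95, 3.39 and 1.19 CPM. In libraries labelled male it was at 3.41, 4.53 and 4.11 CPM in SERTfl/fl and at 4.91, 3.19 and 2.66 CPM in SERTPyramid. SERTPyramid replicate 3 labelled female, with 28 Ogn counts, was the lowest of the 12 libraries, and the genotypes overlapped in both labelled sexes.

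**Figure D1:**
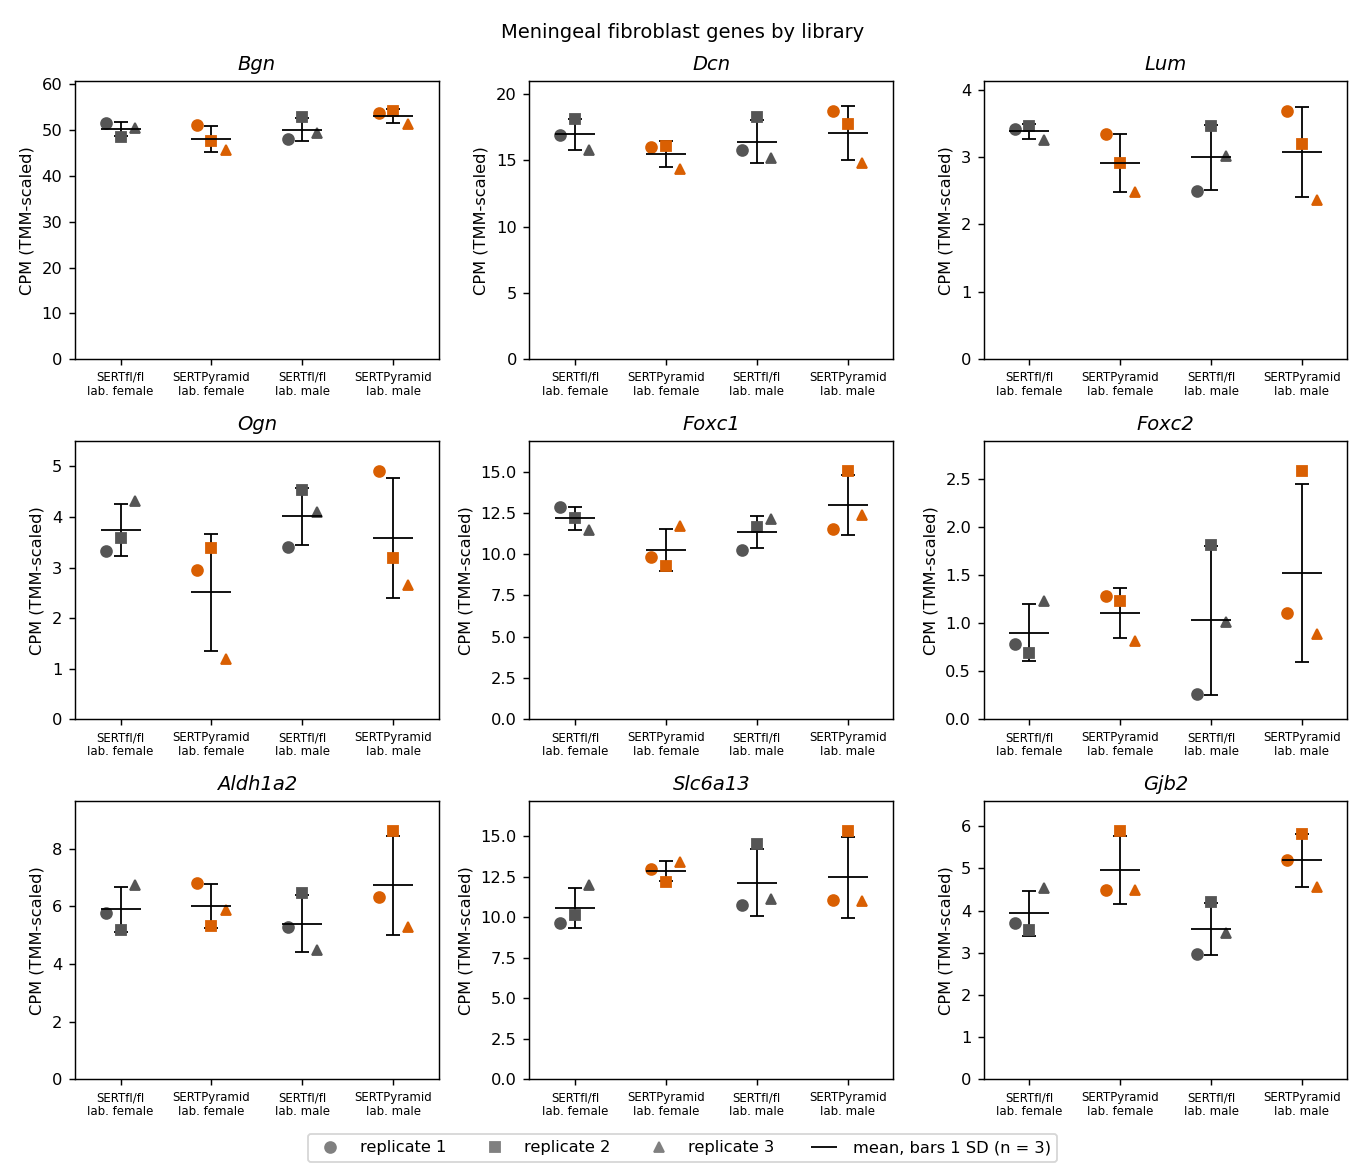
TMM-scaled CPM of each of the 9 genes (vertical axis, from 0) by genotype and labelled sex. Points are libraries, grey for SERTfl/fl and orange for SERTPyramid, with the replicate number as the symbol, and lines are the group mean with bars of 1 SD (n = 3). Genotype groups overlap in every panel except Slc6a13 among libraries labelled female and Gjb2 among those labelled male.

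No proteoglycan passed the test between genotypes. Among libraries labelled female the log2 fold changes were -0.06 ± 0.06 (SE) for Bgn, -0.13 ± 0.10 for Dcn, -0.21 ± 0.18 for Lum and -0.58 ± 0.31 for Ogn. Among those labelled male they were 0.08 ± 0.06, 0.05 ± 0.10, 0.03 ± 0.18 and -0.17 ± 0.29, in the same order. The Ogn value labelled female had the smallest adjusted edgeR p of these, 0.690, and it was -0.24 without SERTPyramid replicate 3. In the wider family, 13 of 15 listed proteoglycans could be tested and 0 passed in any contrast. Of the 13, 5 had a fold change above 0 among libraries labelled female and 7 among those labelled male, the latter 3 to 10 with 1 library left out (3 without SERTPyramid replicate 1). Across both labelled sexes only Podn (0.28 ± 0.13) and Ecm2 (-0.37 ± 0.14) had an unadjusted edgeR p under 0.05, both under the female label. Over all genes tested, 8.04% had such a p labelled female and 3.16% labelled male.

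Foxc1 and Foxc2 encode related forkhead transcription factors. Foxc1 (chr13:31806633-31812476) was at 12.9, 12.2 and 11.45 CPM in SERTfl/fl and 9.81, 9.27 and 11.7 CPM in SERTPyramid libraries labelled female. Among libraries labelled male it was at 10.3, 11.6 and 12.2 CPM in SERTfl/fl and 11.52, 15.04 and 12.4 CPM in SERTPyramid. The SERTPyramid values therefore lay mostly below the controls under the female label and mostly above them under the male label, with overlap in both. The log2 fold changes were -0.25 ± 0.11 labelled female and 0.19 ± 0.11 labelled male (edgeR adjusted p = 0.594 and 0.999). Their difference of -0.43 ± 0.16 had an edgeR adjusted p of 0.999, so a dependence of Foxc1 on labelled sex was not shown. Leaving out each library in turn gave differences of -0.54 to -0.31.

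Foxc2 (chr8:121116171-121118895) was read from only 5 to 59 counts per library. It was at 0.787, 0.685 and 1.23 CPM in SERTfl/fl and 1.28, 1.22 and 0.810 CPM in SERTPyramid labelled female. Labelled male, it was at 0.266, 1.81 and 1.01 CPM in SERTfl/fl and 1.10, 2.58 and 0.886 CPM in SERTPyramid. The highest and the lowest of the 12 values thus both carried the male label, 1 in each genotype. Its variation of 51.9% exceeded the 19.3% of counting error. The fold changes, 0.30 ± 0.56 labelled female and 0.49 ± 0.52 labelled male on the log2 scale, were smaller than their SE, and the latter became -0.12 without SERTPyramid replicate 2, 0.10 without control replicate 1 and 1.17 without control replicate 2. Of the 8 forkhead genes listed, 3 lay above 0 labelled female and 7 labelled male, and 0 passed the edgeR test. Foxd1, expressed in stromal and pericyte lineages, showed the same signs as Foxc1, with -0.22 ± 0.18 and 0.38 ± 0.17. Labelled female, 1 of the 8 was higher and 1 lower in SERTPyramid at an unadjusted edgeR p under 0.05 (8.04% of all genes). Labelled male, 1 was higher and 0 lower (3.16% of all genes).

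Aldh1a2 (chr9:71215789-71296243) encodes a retinaldehyde dehydrogenase that makes retinoic acid. In libraries labelled female it was at 5.77, 5.18 and 6.74 CPM in SERTfl/fl and at 6.82, 5.32 and 5.89 CPM in SERTPyramid. Among libraries labelled male it was at 5.27, 6.46 and 4.49 CPM in SERTfl/fl and at 6.31, 8.61 and 5.28 CPM in SERTPyramid. SERTPyramid replicate 2 labelled male was the highest library and the genotypes overlapped. The log2 fold changes were 0.03 ± 0.18 labelled female and 0.31 ± 0.18 labelled male (edgeR adjusted p = 0.976 and 0.999). Of 21 listed genes of retinoic acid synthesis and response, 18 were tested and 0 passed. Under the male label 17 of the 18 had a fold change above 0, with a median of 0.085, and 10 did so under the female label, with a median of 0.026. With 1 library left out these counts were 14 to 17 and 8 to 12, with 14 reached without SERTPyramid replicate 3 labelled male. Over all 17631 genes, 50.5% were above 0 labelled male and 49.9% labelled female. Other lists also leaned upward labelled male, with 9 of 10 microglia genes and 23 of 27 collagen and basement membrane genes above 0. Of the neuron genes 2 of 10 were. The smallest p-values in the list belonged to Rdh5, a retinol dehydrogenase, labelled male (0.36 ± 0.17 on the log2 scale), and to Cyp26b1, which degrades retinoic acid, labelled female (-0.14 ± 0.07).

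Slc6a13 (chr6:121300227-121337733) encodes GAT2, a transporter of GABA and taurine found in the meninges. Labelled female, SERTfl/fl libraries had 9.62, 10.14 and 11.97 CPM and SERTPyramid libraries 12.99, 12.14 and 13.39 CPM, so every SERTPyramid value lay above every control. Labelled male, SERTfl/fl libraries had 10.8, 14.5 and 11.1 CPM and SERTPyramid libraries 11.1, 15.3 and 10.97 CPM, with near-complete overlap. Slc6a13 was the only member, 1 of 9, without overlap among libraries labelled female. In the table as a whole, 9.48% of the genes tested stood apart with SERTPyramid higher, and 18.9% in either direction. The log2 fold changes were 0.28 ± 0.14 labelled female (edgeR adjusted p = 0.640) and 0.03 ± 0.14 labelled male. Of 10 listed transporters of GABA and organic solutes, 0 passed the test, with 4 above 0 labelled female and 6 labelled male. Slc22a6, an organic anion transporter that fibroblasts of the meninges also make, had a log2 fold change of 0.47 ± 0.18 labelled female.

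Gjb2 (chr14:57098600-57104702, minus strand) encodes connexin 26, which forms gap junctions between meningeal cells. It was at 3.72, 3.55 and 4.53 CPM in SERTfl/fl and at 4.50, 5.88 and 4.48 CPM in SERTPyramid libraries labelled female. Among libraries labelled male it was at 2.98, 4.21 and 3.48 CPM in SERTfl/fl and at 5.21, 5.81 and 4.56 CPM in SERTPyramid. The male-labelled groups did not overlap, and under the female label 1 control exceeded the lower SERTPyramid values. Group means were 3.93 ± 0.526 and 4.95 ± 0.806 CPM (SD, n = 3) labelled female, and 3.56 ± 0.620 and 5.19 ± 0.628 CPM labelled male.

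This was the largest genotype difference relative to its error among the 9 genes. The log2 fold change of Gjb2 was 0.33 ± 0.16 labelled female (edgeR adjusted p = 0.629) and 0.53 ± 0.16 labelled male (adjusted p = 0.999). Averaged over labelled sexes it was 0.43 ± 0.11 (edgeR adjusted p = 0.756). The average stayed between 0.36 and 0.50 when each library was left out in turn, but it passed the adjusted threshold only in an edgeR fit of all genes without the filter on low counts (adjusted p = 0.0365). DESeq2 and limma voom gave 0.43 and 0.41 with adjusted p of 0.897 and 0.338. Among the 9 genes, Gjb2 was the only one, 1 of 9, without overlap labelled male, against 3.66% of all genes with SERTPyramid higher and 6.91% in either direction. Of 10 listed connexins, 5 lay above 0 labelled female and 6 labelled male. Gjb6, a relative that pairs with Gjb2 in inner ear gap junctions, was weakly correlated with it across libraries (r = 0.272, n = 12).

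**Figure D2:**
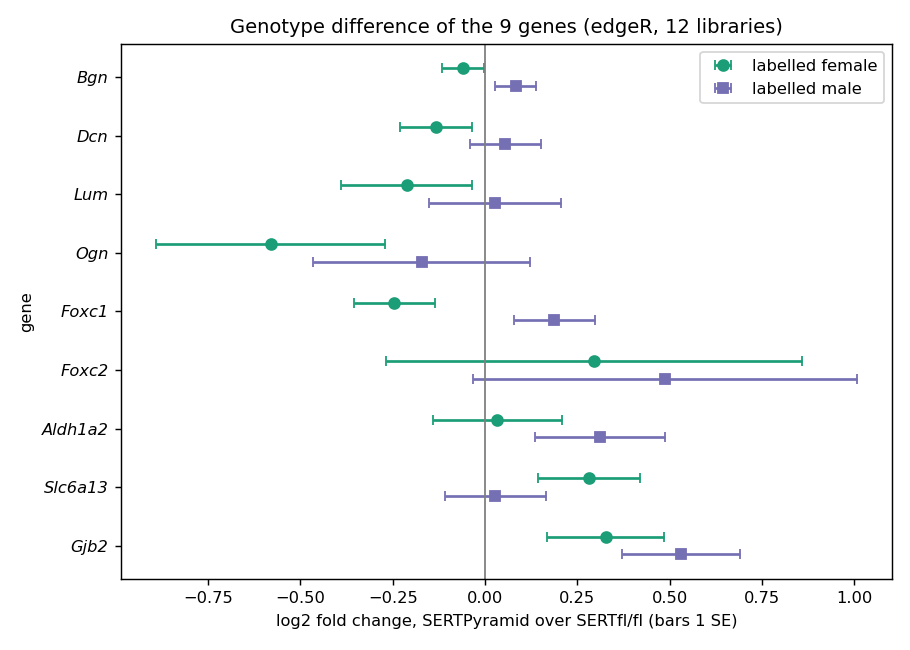
Log2 fold change of each gene, SERTPyramid over SERTfl/fl (horizontal axis), from the edgeR fit of 12 libraries, with bars of 1 SE. Circles are libraries labelled female and squares those labelled male. The Gjb2 estimates lie at 0.33 and 0.53, and those of Foxc1 at -0.25 and 0.19.

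A longer list of fibroblast genes gave a wider view. All 38 listed further fibroblast genes were tested and 0 passed, with 22 above 0 labelled female (median 0.02) and 30 labelled male (median 0.12). Without SERTPyramid replicate 2 labelled male, the latter were 24 and 0.03. The smallest unadjusted p-values in the average belonged to collagen chains. Col6a1 averaged 0.25 ± 0.06, Col6a2 0.29 ± 0.07, Col5a1 0.27 ± 0.07 and Col5a2 0.21 ± 0.06 on the log2 scale. Fbln5, an elastic fibre protein, was at -0.49 ± 0.11 labelled female and at 0.30 ± 0.11 labelled male, a difference of -0.79 ± 0.16 (edgeR adjusted p = 0.696). In the separate fit of libraries labelled female, 36 of these genes were tested. Col6a1, Col6a2 and Col15a1 were called higher and Fbln5 lower, in a fit that called 415 of 17108 genes (2.43%). The separate fit of libraries labelled male called 0 of 37. The summed level of the 38 genes was 1468 to 1684 CPM in SERTPyramid and 1523 to 1543 CPM in SERTfl/fl labelled female, so the groups overlapped. Labelled male, it was 1456 to 1787 CPM in SERTPyramid and 1529 to 1630 CPM in SERTfl/fl.

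The 9 genes tended to be high or low in the same pools. SERTPyramid replicate 2 labelled male was the highest library for 5 of them (Bgn, Slc6a13, Aldh1a2, Foxc1 and Foxc2). SERTPyramid replicate 1 labelled male was the highest for the other proteoglycans Dcn, Lum and Ogn. SERTPyramid replicate 3 labelled female was the lowest for 3 genes, and control replicate 1 labelled male was the lowest for Foxc2 and Gjb2. Among the 36 pairs of members, 33 had a Pearson correlation of log2 CPM above 0 over the 12 libraries. The median r was 0.353 (SD 0.272 over pairs), against -0.003 over all pairs of genes tested. For 3 of the 36 pairs r was at least 0.7, as it was for 1.33% of all gene pairs.

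**Figure D3:**
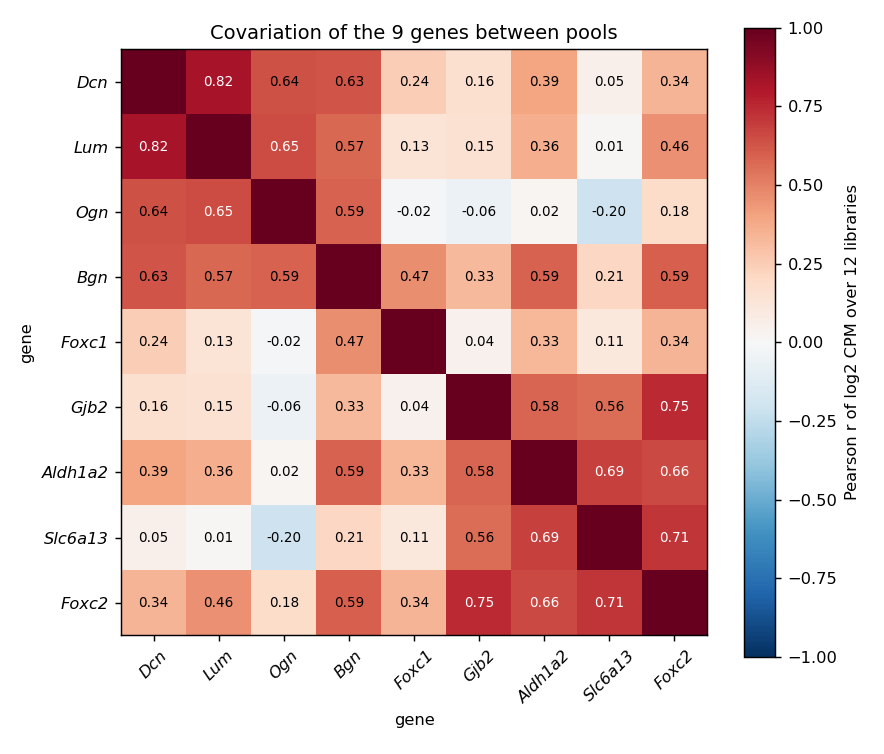
Pearson correlation of log2 CPM over 12 libraries for each pair of the 9 genes, coloured from blue (-1) to red (1), with r printed in each cell. Dcn with Lum is the highest pair at 0.82 and Ogn with Slc6a13 the lowest at -0.20, and Bgn is at 0.59 with Ogn, Aldh1a2 and Foxc2 alike.

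Dcn and Lum varied together most closely. Their r was 0.821 (permutation p = 0.0013, adjusted over 36 pairs p = 0.0468) and rho was 0.874 (adjusted p = 0.0130, permutation). Without the 2 libraries farthest from the median of Dcn, r was 0.757, and for deviations from group means it was 0.849. Ogn correlated with Lum at r = 0.652 and with Dcn at 0.639, and Bgn with Dcn at 0.626, none past the adjusted threshold by permutation. Kera, the next gene beyond Lum, had r of -0.395 with Dcn and -0.116 with Lum. Ecm2, near Ogn, had r = 0.778 with Ogn, and Aspn, lying between them, had 0.234.

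High values of r were also found among Slc6a13, Foxc2, Gjb2 and Aldh1a2. The r was 0.747 for Foxc2 with Gjb2, 0.714 for Slc6a13 with Foxc2, 0.687 for Aldh1a2 with Slc6a13 and 0.664 for Aldh1a2 with Foxc2. Their adjusted permutation p-values were 0.0744, 0.0744, 0.0744 and 0.114. By rank, Slc6a13 with Foxc2 passed (rho = 0.811, adjusted permutation p = 0.0423). Without the 2 farthest libraries this pair had r = 0.424 and Foxc2 with Gjb2 had 0.406. Both relations were thus weaker without those libraries, which included SERTPyramid replicate 2 labelled male. Leaving out the farthest libraries by itself tends to lower r, so how far the relations rested on them cannot be told. The sets were not separate. Bgn had r of 0.594 with Foxc2 and 0.587 with Aldh1a2, as high as its 0.588 with Ogn and 0.574 with Lum, and its r with Ogn was -0.06 without 2 libraries. With the proteoglycans Slc6a13 had low values, 0.05 for Dcn, 0.01 for Lum, -0.20 for Ogn and 0.21 for Bgn. Foxc1 had no r above 0.467 with any member, and its r with Foxc2 was 0.341.

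**Figure D4:**
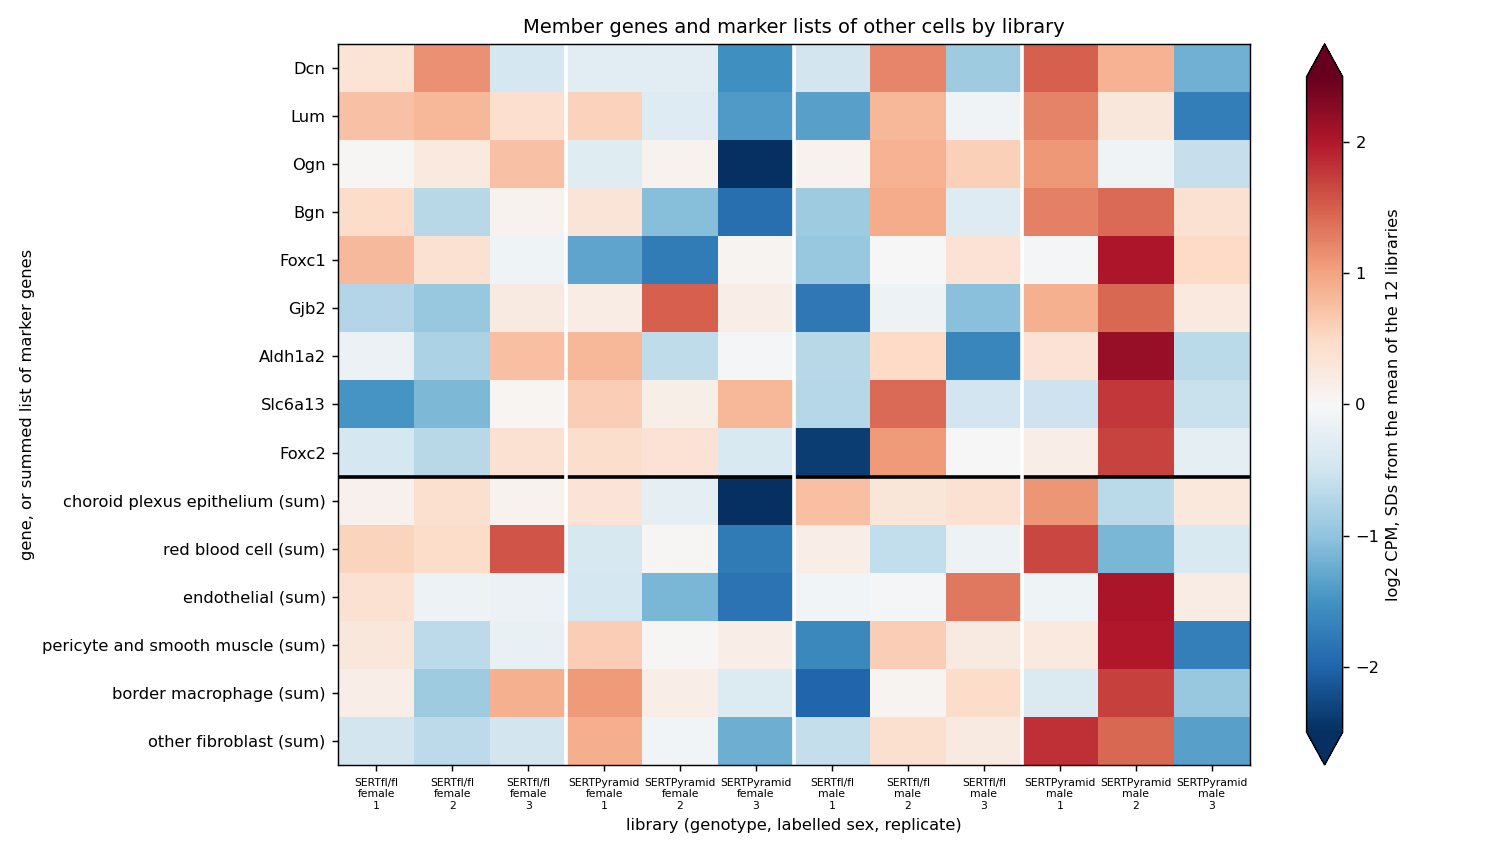
Log2 CPM of the 9 genes (above the black line) and of summed marker lists of other cells (below it) in the 12 libraries, in SDs from the mean of each row, blue for low and red for high. SERTPyramid replicate 3 labelled female is low in Ogn, choroid plexus, red blood cell and endothelial genes, and SERTPyramid replicate 2 labelled male is high in Foxc1, Foxc2, Aldh1a2 and in pericyte, endothelial and border macrophage genes.

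The members were also correlated with 8 summed marker lists, 1 of further fibroblast genes and the others of other cells, and of these 72 relations 1 passed the adjusted threshold by Pearson and 0 by Spearman (permutation tests). The choroid plexus, which secretes cerebrospinal fluid and lies beside the hippocampus, was read from 15 epithelial markers, of which Slc13a4 is also on the list of further fibroblast genes. Their summed level was 1155, 1495 and 1127 CPM in SERTfl/fl and 1419, 858.2 and 84.4 CPM in SERTPyramid labelled female. Labelled male it was 2054, 1384 and 1476 CPM in SERTfl/fl and 2799, 579.2 and 1337 CPM in SERTPyramid. The library lowest in Ogn was thus also the lowest in choroid plexus genes, and the library highest in Ogn the highest. No choroid marker was at 0 in any library, and 0 of the 15 passed the edgeR test. Their fold changes were below 0 for 15 of 15 labelled female (median -0.48), but for 8 of 15 (median -0.02) without SERTPyramid replicate 3. Labelled male they were below 0 for 8 of 15 (median -0.04), for 15 of 15 without SERTPyramid replicate 1 and above 0 for 14 of 15 without SERTPyramid replicate 2.

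Ogn followed this sum with r = 0.868 (permutation p = 0.00871, adjusted over 72 relations p = 0.125) and rho = 0.559. Without SERTPyramid replicate 3 labelled female and SERTPyramid replicate 2 labelled male r was 0.371, so the relation was weaker without those libraries. Single genes with high r to Ogn were Kcnj13, a potassium channel of the choroid plexus (0.915), Col8a1 (0.902) and Ttr, which encodes transthyretin (0.882). For deviations from group means the r of Ogn with the sum was 0.807. The r values of the other proteoglycans with it were 0.476 for Dcn, 0.426 for Lum and 0.502 for Bgn. The part of choroid plexus tissue in the Ogn values was not tested.

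**Figure D5:**
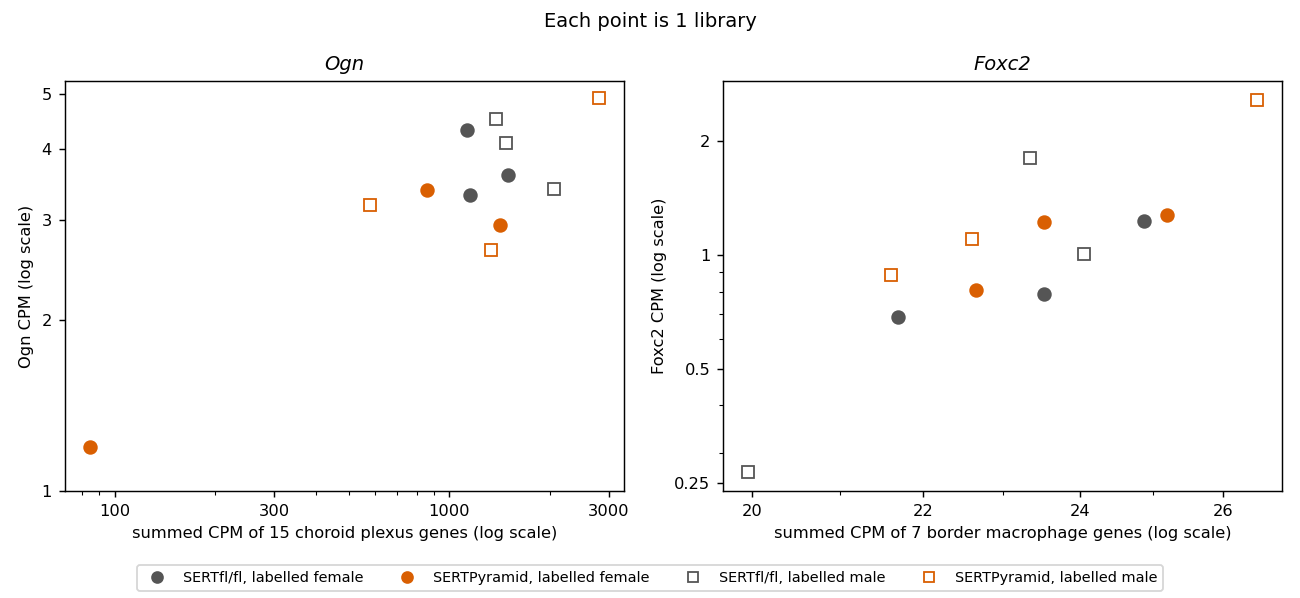
CPM of Ogn against the summed CPM of 15 choroid plexus genes (left) and of Foxc2 against that of 7 border macrophage genes (right), all axes on log scales, with 1 point per library. Grey is SERTfl/fl and orange SERTPyramid, filled circles are labelled female and open squares labelled male. One library sits alone at the lower left of each panel, at 1.19 CPM of Ogn and at 0.266 CPM of Foxc2.

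Foxc2 was the only member with a relation to another cell list past the adjusted threshold. Its r with 7 markers of border macrophages, the resident macrophages of meninges and perivascular spaces, was 0.852 (adjusted permutation p = 0.0475). The rho of 0.748 had an adjusted permutation p of 0.268. Without control replicate 1 and SERTPyramid replicate 2, both labelled male, r was 0.543, so this relation was weaker without them. How far it rested on them cannot be told, because leaving out the farthest libraries by itself tends to lower r. For deviations from group means r was 0.881. Foxc2 also had r = 0.806 with pericyte and smooth muscle markers (adjusted permutation p = 0.120), and 0.876 without the 2 libraries farthest from the median of that sum. The border macrophage sum ranged only from 19.96 to 26.49 CPM, and 0 of its 7 genes were at 0 in any library. Mrc1 of border macrophages was the single gene of that list closest to Foxc2 (r = 0.855). The rest were mixed, with Lyve1 at 0.767, Cd163 at 0.512, F13a1 at 0.421, Ms4a7 at 0.0006, Pf4 at -0.229 and Cbr2 at -0.426. Of 6 listed arachnoid genes, Cdh1 had 0.878 and Crabp2, a retinoic acid binding protein, 0.740, while Angptl2 was lowest at 0.240.

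Aldh1a2, Slc6a13 and Gjb2 had r of 0.683, 0.648 and 0.527 with the same pericyte and smooth muscle sum and 0.640, 0.567 and 0.571 with the border macrophage sum, none past the adjusted permutation threshold. With the sum of the 38 further fibroblast genes, r was 0.687 for Bgn, 0.669 for Lum and 0.645 for Dcn (adjusted permutation p = 0.136, 0.136 and 0.145). Without the 2 libraries farthest from the median of that sum these were 0.425, 0.650 and 0.407, and for deviations from group means 0.737, 0.931 and 0.753. Foxc1 had the lowest r with the fibroblast sum, 0.0975.

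Of the remaining relations, none of which passed, Foxc1 had r = 0.683 with the sum of 14 endothelial markers (adjusted permutation p = 0.136) and 0.734 without 2 libraries. Lum had r = 0.727 with 10 astrocyte markers (adjusted permutation p = 0.125), but 0.323 without control replicate 1 and SERTPyramid replicate 3, both labelled male. With red blood cell genes r was 0.716 for Ogn and -0.597 for Slc6a13 (adjusted permutation p = 0.125 and 0.206), and 0.359 and -0.594 without 2 libraries. Slc6a13 was close to Slc6a12, which encodes a betaine and GABA transporter (r = 0.823), and to the pericyte channel gene Kcnj8 (0.849). Kcnj8 was the highest of the pericyte and smooth muscle list. On that list Tagln (-0.469), Myl9 (-0.346), Higd1b (-0.181) and Ndufa4l2 (-0.009) had r below 0 with Slc6a13. Aldh1a2 also had r = 0.777 with Slc6a12. Gjb2 was close to the collagen genes Col6a1 (0.887), Col5a1 (0.840) and Col1a1 (0.744). Other collagen genes were not close to it, among them Col15a1 (0.155), Col14a1 (0.004), Col8a2 (-0.124) and Col8a1 (-0.224). With the sum of further fibroblast genes Gjb2 had r = 0.441, and 0.066 without 2 libraries. Bgn had r = 0.849 with Abcb1a, the efflux pump of brain endothelium and the highest of the endothelial list. On that list Cldn5 had 0.242, Emcn -0.051 and Ly6c1 -0.111. With the endothelial sum Bgn had r = 0.656, and 0.202 without 2 libraries. These single-gene values are descriptions over the same 12 libraries, which share depth and dissection.

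The genes most like the members as a whole were found from the mean of the 9 standardised levels. This mean was highest in SERTPyramid replicate 2 labelled male (1.295 SDs) and lowest in control replicate 1 labelled male (-1.004). Npy1r, a receptor of neuropeptide Y, came first with r = 0.931 over 12 libraries, though its own level ranged only from 20.94 to 23.74 CPM. It was followed by H6pd, Rprd2, Mrc2, H19, Tti1, Fam208b, Itih2 and Dusp10, with r from 0.886 to 0.829. Among them Mrc2, an endocytic collagen receptor of fibroblasts (0.846), and H19, an imprinted RNA abundant in fetal mesenchyme (0.841), ranged from 10.47 to 14.91 and from 8.23 to 18.8 CPM. The lowest 5 were Mtfr1l (-0.882), Eva1a, Mrpl9, Osbpl9 and Rnf166 (-0.832). All these genes were picked as the extremes of r among many genes over only 12 libraries, which alone gives large values, and none was tested.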

How the data were processed

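RNA from pooled dorsal hippocampus was made into unstranded TruSeq v2 libraries, per the labels' protocols. The deposited table holds raw counts per Ensembl gene for 52634 genes. The build is mm10, per the submitters' processing notes, and for aligner, counting settings and annotation the sources used here give nothing. Symbols were matched for 52401 identifiers, and 52487 were in the GENCODE annotation of GRCm38, the source of coordinates and exon lengths. A count of 0 allows up to 3 counts, 0.118 to 0.160 CPM, for counting error only. No libraries of a group agreed within sampling noise (chi-square over degrees of freedom 2.52 to 13.8).

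Genes kept by filterByExpr, 17631, were tested with edgeR 4.0.16 (TMM, quasi-likelihood, robust) in R 4.3.3, in 4 groups of 3 libraries. Standard errors were taken as the fold change (log2) divided by the root of its F statistic. Correlations used log2 CPM (prior count 2) and 100000 permutations, two-sided, in families of 36 pairs and 72 relations to list sums, with Benjamini-Hochberg adjustment. Group deviations are log2 CPM minus the group mean. The 9 genes, gene lists and tests were chosen with earlier results of these data known. Named genes are the members, up to 4 genes per list with the smallest p in a contrast or the highest mean, and the 10 nearest and 5 farthest genes in correlation with the members' mean (mean log2 CPM of at least 1), and some of these are not reported here. Single genes correlated with 1 member, and Kera, Ecm2, Aspn and Gjb6 as relatives or neighbours, were picked after their values were seen. The tests were tried on simulated data. Alternatives were RLE scaling, no filter, 1 CPM in 6 libraries, DESeq2 1.42.0, limma 3.58.1 voom with quality weights, a replicate block, each labelled sex alone, and leaving out each library. Leaving out control 1 of both labelled sexes, or the libraries lowest and highest in choroid plexus genes, was added after seeing the data.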

Additional observations from a re-analysis of the deposited data

How the results depend on the processing

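Across 702 refitted log2 fold changes of the 9 genes, 677 kept their direction and their side of the threshold, 24 changed sign and 1, the average of Gjb2 without a filter, passed (0.43), and 26 of the 36 member results never changed sign. Limma voom with quality weights gave -0.0675 for Lum and -0.0290 for Slc6a13 labelled male and 0.0207 for the difference of Foxc2. Leaving out control 1 of both labelled sexes gave -0.0739, -0.0447 and 0.112 for the same results. The other sign changes came from leaving out 1 library, and all concern values within their SE. The ranges were -0.0674 to 0.142 for Aldh1a2 labelled female, -0.0161 to 0.149 for Dcn, -0.122 to 0.187 for Lum, -0.466 to 0.0059 for Ogn, -0.146 to 0.181 for Slc6a13 and -0.119 to 1.167 for Foxc2, all labelled male, -0.879 to 0.417 for the difference of Foxc2, and -0.0099 to 0.0331 for Bgn, -0.0731 to 0.008 for Dcn and -0.0863 to 0.0128 for Foxc1 in the average. The cause was not tested.

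The number of genes called over the whole table was 0 in each contrast. Without a filter, where more genes are tested, edgeR called 103 labelled female, 5 labelled male, 14 for the difference and 66 for the average. DESeq2 called 1 labelled female and 1 for the difference, and the fit of libraries labelled female alone called 415. Leaving out 1 library gave 0 to 2 calls labelled female, 0 to 144 in the average and 0 in the others, with 2 and 144 both reached without SERTPyramid replicate 2 labelled male. The median correlation of member pairs was 0.353 and ranged from 0.253 to 0.462 with 1 library left out, and was 0.345 without the libraries lowest and highest in choroid plexus genes.

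Of 18 same-numbered pairs of libraries from different groups, 2 had deviations correlated above 0.1 (r from -0.225 to 0.234). The highest was SERTPyramid replicate 1 of both labelled sexes. The median r was 0.021 for same-numbered pairs and -0.006 for the others, so no pairing by number was seen. Such a check cannot show whether pools shared litters or batches. With the replicate block, 0 genes were called in each contrast and all 36 member results stayed as they were, for example 0.43 for the average of Gjb2. Depth limits Foxc2 most, with 5 to 59 counts per library, and Lum and Ogn next.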
